A study of Sus scrofa with 15 samples.

Results

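The genes described here are the numbered zinc finger genes that were expressed in pig embryos made by somatic cell nuclear transfer (SCNT). A member carried a symbol made of ZNF and a number and had a mean normalized value of at least 10 over the 12 SCNT embryo libraries. Of 240 numbered ZNF genes in the expression table, 134 met this rule, 106 lay under the threshold and 35 of those were at 0 in every embryo library. Just inside the threshold lay *ZNF318* with a mean of 10.5 and *ZNF263* with 10.6, and just outside it lay *ZNF131* with 9.97 and *ZNF787* with 9.63. The level in embryos therefore chose the members, and it is given only as a description. RNA was sequenced from 5 groups with 3 libraries in each. PFF are cultured pig fetal fibroblasts, at early passages, whose nuclei were transferred. SCNT4c and SCNT8c are untreated cloned embryos at the 4-cell and 8-cell stage. SCNT4c-KG embryos were injected with mRNA of *KDM4A*, an H3K9me3 demethylase, and cultured with GSK126, which inhibits the H3K27 methyltransferase *EZH2*, so the effects of the 2 agents cannot be told apart. SCNT4c-TDG embryos were made from PFF that carried a doxycycline-inducible vector for thymine DNA glycosylase (TDG), an enzyme of active DNA demethylation, and were exposed to doxycycline. According to the study's methods, PFF with the vector were also selected with puromycin. A library of embryos given doxycycline without the vector was not analysed here, so vector, selection, drug and enzyme cannot be told apart. All SCNT embryos share the nuclear transfer into an enucleated oocyte, and each SCNT library was a pool of 30 embryos.

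Most numbered ZNF proteins bind DNA through arrays of C2H2 zinc fingers. Many of them also carry a KRAB domain, which recruits *TRIM28* (KAP1) and through it the H3K9 methyltransferase *SETDB1*, and these KRAB proteins are known for silencing transposable elements and for keeping imprinted regions methylated in the early embryo. Their genes often lie in tandem clusters, and the finger array is usually encoded by 1 long exon. Other numbered ZNF proteins have no KRAB domain and act in transcription complexes, in ribosome assembly, on RNA or at the mitotic spindle.

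The libraries held 12354649 to 22868038 recovered reads, with the lowest depth in SCNT4c-KG (12354649 to 15390472) and the highest in PFF (22224949 to 22868038). One read was worth 1.27 to 1.63 units of normalized value in SCNT4c-KG and 0.765 to 0.836 in SCNT4c-TDG, so low values were coarser in SCNT4c-KG. Of the targeted genes, *KDM4A* was at 134 to 313 in SCNT4c, 1429 to 1476 in SCNT4c-KG and 555 to 918 in SCNT4c-TDG. *TDG* was at 939 to 2541 in SCNT4c, 3886 to 4738 in SCNT4c-KG and 49860 to 59940 in SCNT4c-TDG. Among these groups *KDM4A* and *TDG* were thus each highest in the embryos labelled for them and also lay above SCNT4c in the other treatment. *EZH2*, whose product GSK126 inhibits, was at 314 to 344 in SCNT4c, 915 to 1245 in SCNT4c-KG and 983 to 1208 in SCNT4c-TDG. The 10 fibroblast markers took 14.2% to 14.5% of the signal in PFF and 0.0109% to 0.0307% in the embryo libraries. The 10 oocyte and early embryo markers took 1.08% to 1.15% of the signal in SCNT4c, 0.281% to 0.466% in SCNT4c-KG, 0.151% to 0.197% in SCNT4c-TDG and 0.319% to 0.715% in SCNT8c, a sum carried mainly by *KPNA7* and *ZP4*. Of the 7 markers tested, 2 were lower and 1, *ZP3*, higher in SCNT4c-KG (4.74 on the log2 scale), 4 were lower and 0 higher in SCNT4c-TDG, and *BMP15* and *GDF9* were at 0 in all libraries. The part of these transcripts in the differences below was not tested. Across features, the mean Pearson r of SCNT8c replicate 3 was 0.859 to the SCNT4c libraries and 0.772 to the other SCNT8c libraries. In pools of embryos, fewer cells and less RNA per cell cannot be told apart. Nothing in the labels says that the pools of a group came from separate days, so p-values measure the spread between these libraries, which may be technical.

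Together the 134 members took 0.282% to 0.288% of the signal in PFF, 0.380% to 0.390% in SCNT4c, 0.353% to 0.472% in SCNT4c-KG, 0.625% to 0.677% in SCNT4c-TDG and 0.402% to 0.636% in SCNT8c. The mean normalized value over the 12 embryo libraries ranged from 10.5 to 14471 with a median of 109, and 14 members were at 1000 or above. Levels were compared between genes only after division by the length of the annotated transcript. Over the embryo libraries, the 6 members with the highest value per kb were *ZNF706* (4026), *ZNF79* (2253), *ZNF664* (2076), *ZNF367* (1468), *ZNF207* (1311) and *ZNF277* (623). *ZNF207*, known as BuGZ, binds microtubules and stabilizes the spindle checkpoint protein BUB3. In PFF the 5 highest per kb were *ZNF664* (1923), *ZNF706* (895), *ZNF24* (822), *ZNF703* (739.7) and *ZNF207* (593). Each of *ZNF664*, *ZNF706* and *ZNF207* was thus among the most abundant members per length in both the donor cells and the embryos. The highest group mean of the 4 embryo groups was that of SCNT4c-TDG for 47 members (35.1%, against 19.5% of all 18942 features with a mean of at least 10), that of SCNT8c for 36 (26.9% against 20.5%), that of SCNT4c-KG for 26 (19.4% against 25.8%) and that of SCNT4c for 25 (18.7% against 34.2%). These 18942 features are the background used below and include transcripts that the authors assembled and entries without a coding annotation. At the same threshold there were 10517 coding genes. Shares of calls and of levels over coding genes alone were not computed. The heat map of the members shows the rows with their highest colours in SCNT4c-TDG at its lower end, where SCNT4c-KG is blue.

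**Figure D1:**
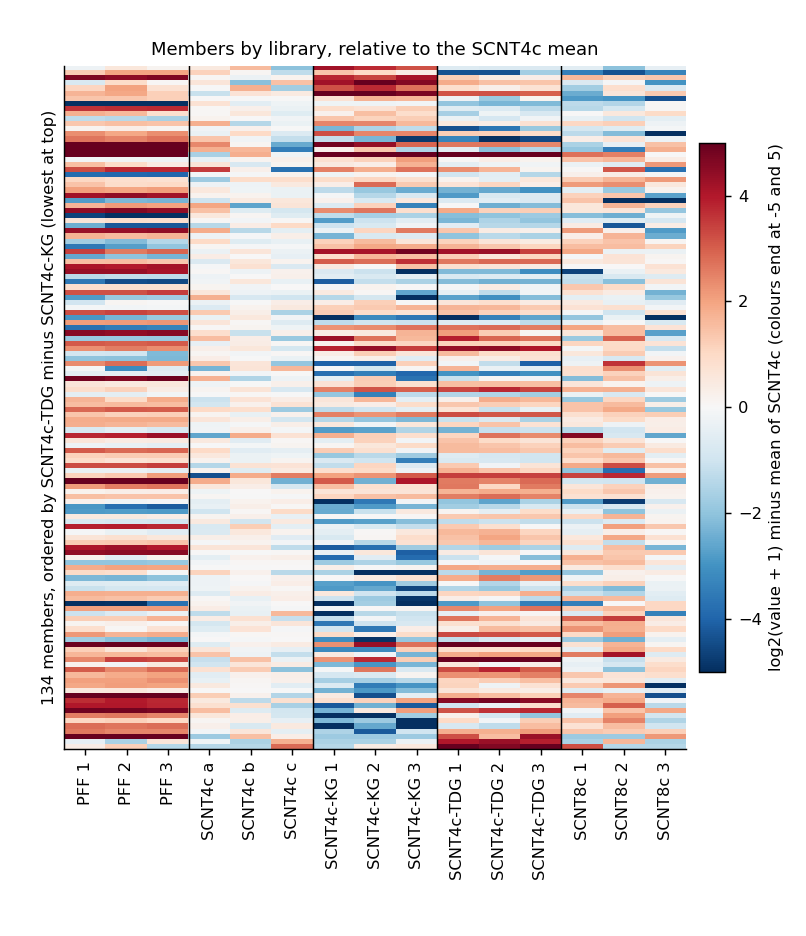
Each row is 1 of the 134 members and each column 1 library. The colour gives log2(value + 1) minus the mean of the 3 SCNT4c libraries, and rows are ordered by the difference between SCNT4c-TDG and SCNT4c-KG. The order fixes the contrast between those 2 groups from top to bottom, while the 3 SCNT4c libraries stay pale in most rows and the PFF columns are red in many rows, where donor cells were higher.

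The comparison of donor cells with untreated 4-cell embryos was made without a test, since the members had been chosen by their level in embryos. The SCNT4c mean was less than 1/2 of the PFF mean for 71 members (53%, against 30.3% of all features), more than 2 times the PFF mean for 27 (20.1%, against 52.7%) and between those limits for 36. The 3 libraries of SCNT4c lay below all those of PFF for 77 members (57.5%, beside 32.1% of all features) and above them for 28 (20.9%, beside 47%). With the same total in each library, the numbers over 2 times and under 1/2 were 36 (26.9%, against 58% of all features) and 52 (38.8%, against 25.4%). *ZNF330*, a nucleolar protein, was at 338, 318 and 350.4 in PFF and at 0, 9.61 and 1.66 in SCNT4c. *ZNF629* was at 1473, 1310.5 and 1495 in PFF and at 60.7, 47.2 and 65.6 in SCNT4c. The donor libraries of both genes stood far above the embryo libraries. In the other direction, *ZNF79* was at 352, 335 and 323 in PFF and 4725, 4882 and 5676 in SCNT4c, and *ZNF367* was at 106, 125 and 137 and 1477, 1556 and 1228. *ZNF648* was listed at 0 in the 3 PFF libraries and was at 392, 166 and 205 in SCNT4c. *ZNF703*, a developmental corepressor, was at 2369, 2505 and 2545 in PFF and 202, 229 and 154 in SCNT4c, while *ZNF423*, a cofactor of EBF and SMAD proteins in development, was at 14.7, 7.64 and 7.15 and 165, 271 and 141. These developmental genes thus stood in opposite order between donor cells and embryos.

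The embryo groups were compared with limma on log2(value + 1) in 1 fit of the 12 embryo libraries and 18942 features, with Benjamini-Hochberg adjustment over all of them. A gene was called at an adjusted p under 0.05 together with a fold change over 2. Fold changes are on this log2 scale, which understates the change of low genes, and their errors are standard errors. All 134 members were tested, and since a member could pass the expression threshold through 1 high group, the counts of calls are descriptions that are set beside the same share of all features. With 3 against 3 libraries an exact permutation test cannot go below p = 0.1.

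The comparison of SCNT4c-KG with SCNT4c asks how RNA levels differed after removal of repressive histone methylation was promoted. Of the 134 members, 21 were higher and 31 lower in SCNT4c-KG, in all 52 (38.8%), beside 37.2% of all features. The split was 20 higher and 19 lower without SCNT4c library a, 21 and 18 without library b, 20 and 22 in edgeR and 26 and 28 in DESeq2, so the excess of falls was smaller or absent there. Of all features called, 47.3% were higher, and the share moved in the same way, to 52.8%, 51.5%, 53.4% and 53.4% in these 4 alternatives. By direction, 15.7% of the members and 17.6% of all features were higher, and 23.1% and 19.6% were lower. The median log2 fold change was -0.03 for members and -0.30 for all features. The sign of the members' median depended on the fit. It was -0.15 without SCNT4c library c (beside -0.35), 0.06 without SCNT4c-KG replicate 3 (beside -0.22) and 0.13 in DESeq2 (beside -0.09). Libraries of the 2 groups did not overlap for 66 members (49.3%, beside 53.9% of all features). The count of members called thus lay near the background, and the description turns on which members they were.

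Among the rises in SCNT4c-KG, *ZNF330* (at chr8:86019111-86036738 in Sscrofa11.1) went from 0, 9.61 and 1.66 in SCNT4c to 376, 321 and 447 in SCNT4c-KG, which is 6.96 ± 0.90 on the log2 scale (limma adjusted p = 3.84e-05). *ZNF593*, whose yeast relative helps to export the large ribosomal subunit, lies at chr6:83590840-83593284 and went from 100.2, 119.7 and 44.0 to 1183, 1676 and 899, a change of 3.89 ± 0.53 (adjusted p = 5.66e-05). For both genes every treated library lay above every untreated one. *ZNF629* rose from 60.7, 47.2 and 65.6 to 797, 612 and 1017 (3.77 ± 0.43, adjusted p = 1.10e-05). *ZNF143*, an activator of promoters of small nuclear RNA and protein-coding genes that also sits at chromatin loops, rose from 196, 479.7 and 364 to 2623, 2249 and 4071 (3.15 ± 0.36, adjusted p = 1.22e-05). These 4 rises were called under every alternative run. *ZNF532*, part of a chromatin complex with *ZNF592* and ZMYND8, was at 1.58, 7.86 and 6.64 in SCNT4c against 258, 229.7 and 144 in SCNT4c-KG (5.20 ± 0.94, adjusted p = 6.19e-04). Summed with the assembled transcripts of its locus, the change of *ZNF532* was 1.19 (adjusted p = 0.0581, against 1.71e-10 to 0.0581 over all alternatives). *ZNF584* was at 11.04, 0.874 and 20.8 and 142, 249 and 191 (4.59 ± 0.999, adjusted p = 0.00239), and with its locus summed the change was 0.38 (adjusted p = 0.602, against 5.41e-06 to 0.602 over all alternatives). The rises of these 2 genes therefore depended on which transcripts of the locus were counted. *ZNF628* was at 30.0, 5.24 and 0 and 165, 122 and 42.7 (4.06 ± 1.15, adjusted p = 0.0123), and without SCNT4c library c its change was 2.79 (adjusted p = 0.0585, against 0.00318 to 0.0585 over all alternatives).

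Among the falls in SCNT4c-KG, *ZNF664*, 1 of the most abundant members per length, was at 13707, 11193 and 11921 in SCNT4c against 897, 1154 and 807 in SCNT4c-KG. It changed by -3.70 ± 0.25 on the log2 scale with an adjusted p of 6.39e-08, and all treated libraries lay far under the untreated ones. *ZNF643* was at 659, 650.1 and 636 and 124, 88.8 and 144 (-2.46 ± 0.32, adjusted p = 3.89e-05). The SCNT4c libraries of *ZNF643* lay close together and far above those of SCNT4c-KG. *ZNF514* went from 900.0, 1190.2 and 1088 to 147, 179 and 42.7 (-3.32 ± 0.56, adjusted p = 3.38e-04) and *ZNF391* from 339, 317 and 337 to 37.6, 10.2 and 85.5 (-3.31 ± 0.68, adjusted p = 0.00154). All 4 falls were called under every alternative. *ZNF383* was at 121, 97.0 and 109 and 0, 33.0 and 0 (-5.08 ± 1.30, adjusted p = 0.00688), but with its locus summed the change was -0.29 (adjusted p = 0.549) and with edgeR the adjusted p was 0.0754 (7.11e-04 to 0.549 over all alternatives). *ZNF774* was at 123, 106 and 44.8 and 0, 0 and 24.2 (-4.85 ± 1.18, adjusted p = 0.00492), with an adjusted p of 0.0507 in edgeR (4.01e-04 to 0.0507 over all alternatives). Both genes were at 0 in 2 of the 3 treated libraries, at the lowest depth of the study. *ZNF132* was at 144, 264 and 163 and 4.90, 19.0 and 14.2 (-3.92 ± 1.37, adjusted p = 0.0351), and this call was lost with each of the 6 libraries left out in turn (adjusted p over the alternatives 0.00119 to 0.13).

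The comparison of SCNT4c-TDG with SCNT4c asks how RNA levels differed after TDG was induced, and it shares its control libraries with the comparison above. In SCNT4c-TDG, 34 members were higher and 12 lower, in all 46 (34.3%), beside 33.3% of all features. Higher members made up 25.4%, beside 15.7% of all features, and lower members 8.96%, beside 17.6%. The median log2 fold change was 0.64 for members and -0.26 for all features, and with assembled transcripts of the locus added it was 0.17 for members. Transcripts were added for members only, so all features have no like value to set beside 0.17. Libraries did not overlap for 79 members (59%, beside 58.4% of all features). When each library was scaled to the same total, the split of called members was 37 higher and 9 lower (46 in all), while the share of higher genes among all called features went from 47.1% to 56.1% and the median of all features from -0.26 to 0.00. The median of the members was 0.91 under that scaling. Without SCNT4c-TDG replicate 1, the count of members called was 30, with 22 higher and 8 lower, and without replicate 2 the split was 22 higher and 9 lower. In these 2 fits 22.4% and 23.1% of the members were called, beside 24% and 24.4% of all features.

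*ZNF330* went from 0, 9.61 and 1.66 in SCNT4c to 171, 234 and 112 in SCNT4c-TDG (5.77 ± 0.90, adjusted p = 2.09e-04). *ZNF507* was at 1.58, 3.50 and 4.15 in SCNT4c and 195, 227 and 174 in SCNT4c-TDG (5.67 ± 0.80, adjusted p = 8.39e-05). *ZNF148*, known as ZBP-89, binds GC-rich promoters, and it rose from 89.1, 25.3 and 112 to 1493, 1785 and 1484 (4.62 ± 0.61, adjusted p = 5.37e-05). In all 3 genes the treated libraries lay well above the untreated ones, and for *ZNF148* and *ZNF507* they also lay above the PFF libraries at 833, 1006 and 877 and 116, 126 and 114. *ZNF593* rose from 100.2, 119.7 and 44.0 to 1662, 1794 and 1318 (4.27 ± 0.53, adjusted p = 2.68e-05). These 4 rises were called under every alternative. *ZNF654* was at 0, 0 and 18.3 and 121, 66.0 and 138 (5.28 ± 1.41, adjusted p = 0.00977), with an adjusted p of 0.0732 in edgeR and 0.158 in DESeq2 (7.57e-04 to 0.158 over all alternatives). *ZNF583* was at 0, 5.24 and 0.830 and 68.6, 78.2 and 88.8 (5.13 ± 1.01, adjusted p = 0.00124), but with its locus summed the change was -0.61, in the opposite direction (adjusted p = 0.29, against 1.50e-05 to 0.29 over all alternatives).

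Among the falls in SCNT4c-TDG, *ZNF664* went from 13707, 11193 and 11921 to 1557, 1144 and 1498 (-3.14 ± 0.25, adjusted p = 6.31e-07). *ZNF862* was at 283, 96.1 and 46.5 and 10.04, 2.30 and 3.83 (-4.29 ± 0.95, adjusted p = 0.00287), and *ZNF365*, a protein of the centrosome and of genome stability, was at 241, 324 and 269.8 and 12.5, 21.5 and 72.7 (-3.30 ± 0.60, adjusted p = 6.81e-04). The untreated libraries of *ZNF862* were spread widely, yet all lay above the treated ones. *ZNF609* fell from 1023, 597 and 563 to 134, 117 and 85.7 (-2.65 ± 0.51, adjusted p = 0.00112). These 4 falls were called under every alternative. *ZNF132* was at 4.18, 16.9 and 28.3 in SCNT4c-TDG (-3.72 ± 1.37, adjusted p = 0.0476) and *ZNF423* at 40.1, 33.8 and 35.2 (-2.32 ± 0.80, adjusted p = 0.0355), and both calls were lost with each library left out in turn (adjusted p over the alternatives 0.00103 to 0.171 and 0.00101 to 0.121). The plot of 8 members by library shows *ZNF593*, *ZNF143* and *ZNF207* above SCNT4c in both treated groups and *ZNF664* below it in both.

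**Figure D2:**
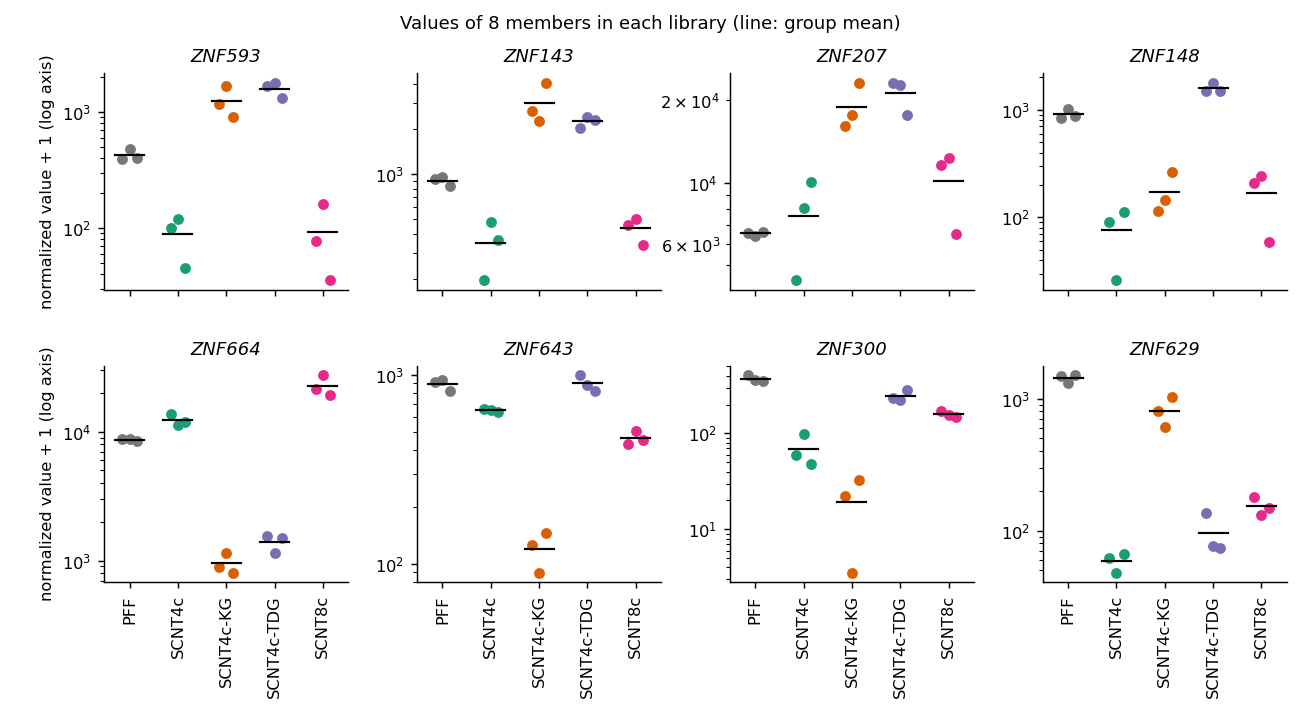
Normalized value + 1 of 8 members on a log axis, with 1 point for each library and a line at the mean of each group. ZNF664 lies between 807 and 1557 in the 6 treated libraries and between 11193 and 13707 in SCNT4c, ZNF148 is high in SCNT4c-TDG alone of the embryo groups, ZNF629 is high in SCNT4c-KG, and ZNF643 and ZNF300 are low in SCNT4c-KG.

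The direct comparison of the 2 treatments does not use the shared control. In SCNT4c-TDG, 30 members were higher and 7 lower than in SCNT4c-KG, in all 37 (27.6%), beside 16.2% of all features. Higher members made up 22.4%, beside 7.07% of all features, and lower members 5.22%, beside 9.13%. The median log2 difference was 0.65 for members and -0.02 for all features. Libraries did not overlap for 70 members (52.2%, beside 44.4%). With the same total in each library, the median of all features was 0.32 and that of the members 1.001, 37 members were higher and 6 lower, and the share of higher genes among all called features went from 43.7% to 63.8%. The median of the members thus lay above that of all features under both scalings. With assembled transcripts of each locus added, 23 members were higher and 8 lower, and their median was 0.36. This sum too was made for members only, so it has no like background. The count of called members was 21 without SCNT4c-TDG replicate 1, 24 without replicate 2 and 21 without replicate 3, of which 15, 18 and 16 were higher, and 18 were higher without SCNT4c-KG replicate 1. In these 4 fits 15.7%, 17.9%, 15.7% and 18.7% of the members were called, beside 10%, 9.6%, 9.57% and 11.2% of all features. In the plot of cumulative shares, the curve of the members runs to the right of that of all features in the comparisons of SCNT4c-TDG with both other groups and close to it in that of SCNT4c-KG with SCNT4c. It also runs to the right over most of the range for untreated SCNT8c against SCNT4c. There 46.3% of the members and 57.8% of all features lay at or below 0, and the curves met near 1.1.

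**Figure D3:**
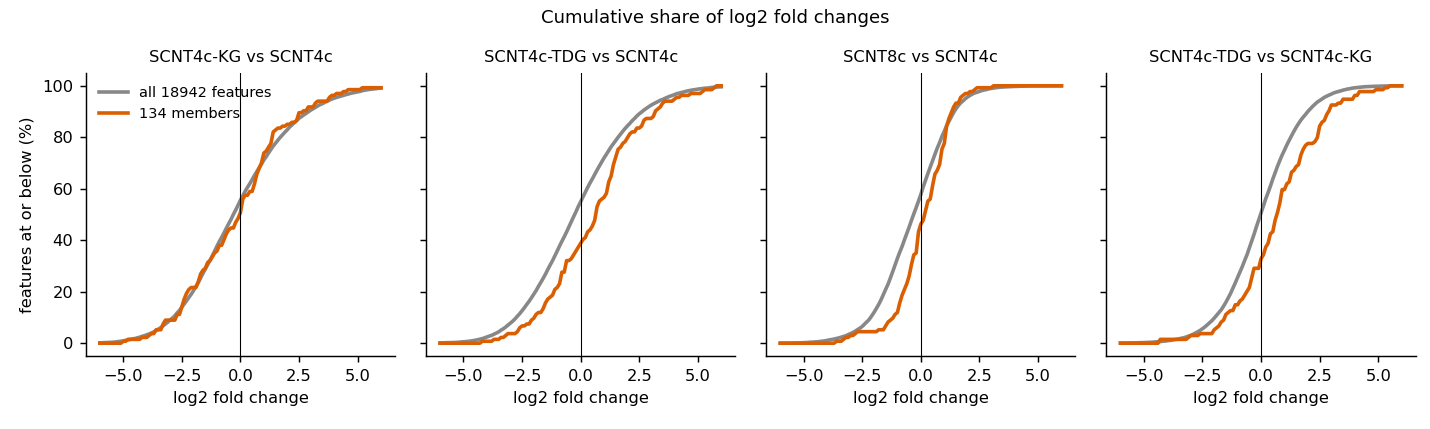
Share of features (in %) at or below each log2 fold change, for the 134 members and for all 18942 features tested, in 4 comparisons. Medians of members and of all features were -0.03 and -0.30 for SCNT4c-KG vs SCNT4c, 0.64 and -0.26 for SCNT4c-TDG vs SCNT4c, 0.19 and -0.31 for SCNT8c vs SCNT4c and 0.65 and -0.02 for SCNT4c-TDG vs SCNT4c-KG.

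*ZNF300* (at chr2:151842002-151872343) was at 21.2, 2.54 and 31.3 in SCNT4c-KG and 231, 225 and 283 in SCNT4c-TDG, a difference of 4.17 ± 0.71 (limma adjusted p = 0.00119), with SCNT4c at 58.4, 97.0 and 46.5 between them. *ZNF643* (at chr6:170660307-170701755) was at 124, 88.8 and 144 and 991, 882 and 821 (2.93 ± 0.32, adjusted p = 5.19e-05), and *ZNF148* (at chr13:134968774-135093828) at 113, 143 and 262 and 1493, 1785 and 1484 (3.28 ± 0.61, adjusted p = 0.00236). These 3 members stood higher in every SCNT4c-TDG library than in any SCNT4c-KG library and were called under every alternative. *ZNF654* was at 0, 2.54 and 2.85 and 121, 66.0 and 138 (5.45 ± 1.41, adjusted p = 0.0161), with a call in 9 of 16 alternatives. With its locus summed the difference of *ZNF654* was 0.20, and the call was also lost in edgeR, in DESeq2, with a pseudocount of 0.1 and without SCNT4c-KG replicate 1 or SCNT4c-TDG replicate 1 or 3 (adjusted p over the alternatives 9.45e-04 to 0.932). *ZNF404* was at 11.4, 15.2 and 0 and 114, 51.4 and 134 (3.99 ± 1.09, adjusted p = 0.0207) and *ZNF12* at 4.90, 40.6 and 125 and 269, 367 and 412 (3.46 ± 0.97, adjusted p = 0.0242). The call of *ZNF404* was lost with its locus summed, where its difference was 1.53, and without SCNT4c-KG replicate 3 or SCNT4c-TDG replicate 1 or 3, and that of *ZNF12* without any 1 of 5 libraries, with adjusted p-values over the alternatives of 0.00152 to 0.085 and 0.00509 to 0.105. In the other direction, *ZNF629* was at 797, 612 and 1017 in SCNT4c-KG and 135, 75.9 and 72.7 in SCNT4c-TDG (-3.11 ± 0.43, adjusted p = 2.71e-04), and *ZNF184* at 807, 659.9 and 711 and 242, 169 and 267 (-1.70 ± 0.35, adjusted p = 0.00438). Both were called under every alternative, with no overlap between the groups. *ZNF622*, which acts in maturation of the large ribosomal subunit, was at 75.1, 53.3 and 37.0 and 1.67, 1.53 and 1.53 (-4.39 ± 1.06, adjusted p = 0.0105), and each SCNT4c-TDG value of this gene rested on 2 reads. With a pseudocount of 0.1 its adjusted p was 0.0989 (9.16e-04 to 0.0989 over all alternatives). *ZNF648* was at 206, 203 and 215 and 60.2, 48.3 and 51.3 (-1.95 ± 0.50, adjusted p = 0.0156) and *ZNF703* at 353, 319.8 and 447 and 125, 118 and 76.5 (-1.82 ± 0.45, adjusted p = 0.0131). Without SCNT4c-TDG replicate 3 their adjusted p was 0.0542 and 0.0677, and without replicate 2 that of *ZNF648* was 0.0601 (0.00169 to 0.0601 and 0.00139 to 0.0677 over all alternatives). *ZNF410*, an activator of *CHD4*, was at 2525, 3225 and 6238 and 1506, 1840.3 and 1657 (-1.16 ± 0.38, adjusted p = 0.0484), and it was called in 7 of 17 alternatives (0.00891 to 0.203), with the call lost without any 1 library other than SCNT4c-KG replicate 1.

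Side by side, the calls of the 2 treatments against the same SCNT4c libraries fell into a few classes. There were 12 members higher in both (8.96%, beside 10.4% of all features), 10 lower in both (7.46%, beside 10.2%), and 2 that were lower in SCNT4c-KG and higher in SCNT4c-TDG (1.49%, beside 0.127%), *ZNF300* and *ZNF248*, whose calls in SCNT4c-TDG were each lost with any 1 of the 6 libraries left out. A further 9 higher members (6.72%, beside 7.09%) and 19 lower members (14.2%, beside 9.31%) were called in SCNT4c-KG and not in SCNT4c-TDG. In SCNT4c-TDG and not in SCNT4c-KG, 20 higher members (14.9%, beside 5.18%) and 2 lower members (1.49%, beside 7.24%) were called, and 60 members (44.8%, beside 50.3%) had neither call. Of those 19 lower members, the direct comparison called 9 higher in SCNT4c-TDG than in SCNT4c-KG, and of those 20 higher members it called 13. For the remaining members of these 2 classes the difference between the treatments was not called. Of the 9 members higher in SCNT4c-KG alone, the direct comparison called 4 lower in SCNT4c-TDG than in SCNT4c-KG. Of the 2 members lower in SCNT4c-TDG alone, it called 2 lower. Of the 12 higher in both it called 2 higher, and of the 10 lower in both it called 0. Of the 60 with neither call it called 4 higher and 1 lower.

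By known role, the members that act in chromatin and transcription complexes came first. Of 20 such genes listed, 12 were members, of which 4 rose and 2 fell in SCNT4c-KG and 7 rose and 2 fell in SCNT4c-TDG, with median log2 fold changes of 1.01 and 1.53, beside -0.30 and -0.26 for all features. Of all features, 17.6% were higher and 19.6% lower in SCNT4c-KG, and 15.7% and 17.6% in SCNT4c-TDG. The 4 that rose with *KDM4A* and GSK126 were *ZNF143*, *ZNF532*, *ZNF639* and *ZNF281*. *ZNF281*, a regulator of pluripotency genes, was at 949.6, 888 and 859 in SCNT4c, 1883, 2471 and 2692 in SCNT4c-KG and 5247, 6174 and 5085 in SCNT4c-TDG. Its log2 fold changes were 1.37 ± 0.27 and 2.61 ± 0.27 (adjusted p = 0.0012 and 5.81e-06), and it was also higher in SCNT4c-TDG than in SCNT4c-KG (1.24 ± 0.27, adjusted p = 0.00602). *ZNF281* thus stepped up from SCNT4c to SCNT4c-KG to SCNT4c-TDG with no overlap between neighbours. *ZNF639* rose by 2.45 ± 0.33 in SCNT4c-KG and by 3.16 ± 0.33 in SCNT4c-TDG (adjusted p = 5.34e-05 and 6.01e-06). *ZNF143* rose by 2.78 ± 0.36 in SCNT4c-TDG (adjusted p = 4.38e-05), where its libraries were at 2014, 2409 and 2309. *ZNF292*, a large transcription factor, was at 445, 439.5 and 453 in SCNT4c, 550.5, 435 and 490.2 in SCNT4c-KG and 1696, 1559.5 and 1578 in SCNT4c-TDG, and it rose in the latter alone of these 2 groups (1.85 ± 0.34, adjusted p = 7.76e-04). The direct difference of *ZNF292* was 1.71 ± 0.34 (adjusted p = 0.00333). *ZNF532* rose by 3.10 ± 0.94 in SCNT4c-TDG (adjusted p = 0.0194) and *ZNF24* by 1.21 ± 0.40 (adjusted p = 0.0309), and *ZNF148* completes the 7. The calls of *ZNF532* and *ZNF24* in SCNT4c-TDG were each lost when any 1 SCNT4c-TDG library was left out, that of *ZNF532* also with its locus summed (0.86) and without SCNT4c library a, and that of *ZNF24* also without SCNT4c library a (0.76) or b (adjusted p over the alternatives 1.29e-04 to 0.169 and 0.0122 to 0.152). The falls were those of *ZNF711*, a partner of the histone demethylase PHF8 (-2.55 ± 0.52 in SCNT4c-KG, adjusted p = 0.00157), of *ZNF592* in both treatments (-1.46 ± 0.50 and -1.93 ± 0.50, adjusted p = 0.0317 and 0.00804) and of *ZNF827*, which recruits the NuRD complex to telomeres, in SCNT4c-TDG (-3.46 ± 1.04, adjusted p = 0.0181). *ZNF827* was at 45.0, 21.0 and 7.47 in SCNT4c and 0, 0 and 5.36 in SCNT4c-TDG, and with its locus summed its change was -1.03, not called, and the difference between SCNT4c-TDG and SCNT4c-KG turned from -4.38 to 0.31. The adjusted p over the alternatives was 0.0113 to 0.149 for *ZNF592* in SCNT4c-KG, whose call was lost in edgeR and DESeq2 and without SCNT4c-KG replicate 1 or any 1 SCNT4c library, and 0.00993 to 0.093 for *ZNF827* in SCNT4c-TDG, lost without SCNT4c library a or b or SCNT4c-TDG replicate 1 or 2.

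Of 14 listed genes that act on RNA, in ribosome assembly or in mitosis, 10 were members, with median log2 fold changes of 0.94 in SCNT4c-KG and 1.21 in SCNT4c-TDG, beside -0.30 and -0.26 for all features, of which 17.6% and 15.7% were higher and 19.6% and 17.6% lower. In SCNT4c-KG, *ZNF207*, *ZNF330*, *ZNF593* and *ZNF622* rose and *ZNF346*, which binds double-stranded RNA, fell (-1.86 ± 0.51, adjusted p = 0.00993). In SCNT4c-TDG, *ZNF207*, *ZNF330*, *ZNF593* and *ZNF277* rose and 0 fell. *ZNF207* was at 4426, 8077 and 10111 in SCNT4c, 16066, 17672 and 23090.0 in SCNT4c-KG and 23207, 22775 and 17739 in SCNT4c-TDG. Its changes of 1.39 ± 0.33 and 1.57 ± 0.33 had adjusted p-values of 0.00387 and 0.0019, and all 6 treated libraries lay above all untreated ones. *ZNF277* rose by 1.51 ± 0.29 (adjusted p = 0.00108) in SCNT4c-TDG and was at 3133, 3124 and 3106 there. *ZNF622* was called in SCNT4c-KG at 75.1, 53.3 and 37.0 (3.71 ± 1.06, adjusted p = 0.0127), and without SCNT4c library c its change was 2.68 (adjusted p = 0.0632, against 0.00105 to 0.0662 over all alternatives). *ZNF706*, the most abundant member per length in embryos, was not called in any of the 4 comparisons and lay between 6091 and 16794 in all embryo libraries. The largest changes of this list in both treatments were those of *ZNF330* and *ZNF593*, while *ZNF622* was not called in SCNT4c-TDG (-0.68 ± 1.06).

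The KRAB genes with a known target or partner numbered 14, of which 7 were members, and 3 of those fell in SCNT4c-KG while 0 rose, beside 19.6% of all features lower and 17.6% higher. The median log2 fold change of the 7 was -1.72 in SCNT4c-KG and 0.70 in SCNT4c-TDG, beside -0.30 and -0.26 for all features. *ZNF445*, which binds imprinting control regions and helps to keep them methylated, was at 465, 634 and 499 in SCNT4c against 75.1, 82.5 and 187 in SCNT4c-KG (-2.32 ± 0.53, adjusted p = 0.00354). *ZNF568*, whose mouse counterpart represses a placental transcript of Igf2, was at 94.6, 287 and 249.9 and 39.2, 24.1 and 38.5 (-2.48 ± 0.56, adjusted p = 0.00319). *ZNF300* was the other fall (-2.25 ± 0.71, adjusted p = 0.0209), and without SCNT4c library b or SCNT4c-KG replicate 2 its adjusted p was 0.0827 and 0.0857 (0.00833 to 0.0857 over all alternatives). In SCNT4c-TDG, *ZNF10* and *ZNF300* rose and *ZNF445* fell, beside 15.7% of all features higher and 17.6% lower. *ZNF10*, the KRAB protein known as KOX1, was at 78.9, 47.2 and 58.1 in SCNT4c, 55.5, 60.9 and 64.1 in SCNT4c-KG and 325, 247 and 398 in SCNT4c-TDG. It rose by 2.38 ± 0.44 (adjusted p = 8.27e-04), and its SCNT4c-KG libraries overlapped those of SCNT4c. *ZNF445* was at 101, 237 and 248 in SCNT4c-TDG (-1.54 ± 0.53, adjusted p = 0.0371) and *ZNF300* at 231, 225 and 283 (1.92 ± 0.71, adjusted p = 0.0477), and these calls were made in 6 and 8 of 16 alternatives and lost with each SCNT4c library left out in turn (adjusted p over the alternatives 0.00588 to 0.173 and 8.75e-04 to 0.131). In the direct comparison, *ZNF10*, *ZNF300* and *ZNF568* were higher in SCNT4c-TDG and 0 of the 7 lower, with differences of 2.38, 4.17 and 2.74 (adjusted p = 0.00222, 0.00119 and 0.0041), beside 7.07% of all features higher and 9.13% lower. Of 9 listed developmental genes, 4 were members, and *ZNF423* fell in both treatments (-2.29 ± 0.80 in SCNT4c-KG, adjusted p = 0.0347, 0.0247 to 0.159 over the alternatives and lost without SCNT4c-KG replicate 1 or any 1 SCNT4c library), while *ZNF703* was not called against SCNT4c.

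*ZNF367*, a regulator of cell cycle genes, stood apart as a member that was called higher in all 3 groups against SCNT4c. It was at 1477, 1556 and 1228 in SCNT4c, 6797, 7237 and 9369 in SCNT4c-KG, 9166, 10197 and 8293 in SCNT4c-TDG and 5618, 4118 and 2286 in SCNT8c. The changes were 2.45 ± 0.31, 2.70 ± 0.31 and 1.41 ± 0.31 (adjusted p = 2.77e-05, 1.30e-05 and 0.0248), and no library of the 3 groups overlapped SCNT4c. The libraries of both treatments also lay above those of SCNT8c, a difference that was not tested.

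The comparison of SCNT8c with SCNT4c follows untreated embryos over 1 cleavage division. Of the 134 members, 2 were higher (beside 2.62% of all features) and 2 lower (beside 3.16%) in SCNT8c, in all 4 (2.99%), beside 5.79% of all features, while 31 (23.1%, beside 28.9% of all features) had an unadjusted p under 0.05. Libraries did not overlap for 31 members (23.1%, beside 23.5%). Beside *ZNF367*, the other rise was that of *ZNF287*, which was at 2275, 2596 and 2595 in SCNT4c and 6882, 7394 and 3791 in SCNT8c (1.22 ± 0.29, adjusted p = 0.0302). The falls were those of *ZNF146*, at 19.7, 19.2 and 19.1 and 1.87, 1.66 and 0 (-3.37 ± 0.86, adjusted p = 0.0371), and of *ZNF827*, at 45.0, 21.0 and 7.47 and 0.934, 0 and 1.06 (-3.69 ± 1.04, adjusted p = 0.0493). Both falling genes were low, and with its locus summed *ZNF146* turned to 0.53. The calls of *ZNF367* and *ZNF287* were made in 10 of 16 alternatives each, and those of *ZNF146* and *ZNF827* in 3 and 2 of 15, with adjusted p-values over the alternatives of 9.28e-05 to 0.223, 1.66e-04 to 0.225, 0.0108 to 0.334 and 0.0171 to 0.324. The count of called members rested on single libraries. It was 30 without SCNT8c replicate 3 (22.4%, beside 32.4% of all features), 1 without replicate 1 and 0 without replicate 2 or without any 1 of the SCNT4c libraries (beside 0.164% to 1.24% of all features). DESeq2 on the recovered reads called 23 members, 20 higher and 3 lower (17.2%, beside 14.4%). The median log2 fold change of the members was 0.19, beside -0.31 for all features. It also moved with the libraries and the tool. Without SCNT8c replicate 3 it was 0.60 (beside -0.26), without SCNT4c library c 0.10 (beside -0.37) and in DESeq2 0.59 (beside 0.07).

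*ZNF664* (at chr14:29031603-29068922) was the most abundant member per length in PFF and SCNT8c, and its level in the 5 groups was 8658 ± 213 in PFF, 12274 ± 1294 in SCNT4c, 952 ± 180.1 in SCNT4c-KG, 1399.7 ± 224 in SCNT4c-TDG and 22749 ± 4109 in SCNT8c (mean ± SD, n = 3). The SCNT8c and SCNT4c libraries did not overlap but the difference was not called (0.88 ± 0.25, limma adjusted p = 0.0527). The SCNT4c-KG and SCNT4c-TDG libraries overlapped, and their difference was not called either (0.56 ± 0.25, adjusted p = 0.152).

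In the annotation of Sscrofa11.1, 41 of the 134 members lie on chromosome 6 and 20 on chromosome 3, of 77 and 31 numbered ZNF genes there. Stretches of 4 or more numbered ZNF genes with gaps of at most 250000 bp were taken as clusters, which gave 11 clusters with 45 members. The largest lies at chr6:45520885-46468679 and holds 10 members among 12 numbered genes. In SCNT4c-KG, 4 of the 10 fell and 1 rose, with a median log2 fold change of -1.76, beside 19.6% lower, 17.6% higher and a median of -0.30 for all features. In SCNT4c-TDG, 1 rose and 0 fell, with a median of 0.04, and in the direct comparison 4 were higher (*ZNF260*, *ZNF568*, *ZNF527* and *ZNF529*) and 0 lower, with a median of 2.08, beside 7.07% higher, 9.13% lower and -0.02 for all features. With their loci summed, the direct differences of *ZNF260*, *ZNF527* and *ZNF529* were 0.61, 0.86 and 0.78 and were not called, while *ZNF568* was called under every alternative. The direct calls of *ZNF260* and *ZNF527* were also lost without any 1 of 2 and 4 libraries (adjusted p over the alternatives 0.00163 to 0.266 and 0.00277 to 0.148). The falls in SCNT4c-KG were those of *ZNF260*, *ZNF568*, *ZNF383* and *ZNF527*, and the gene that rose in both treatments was *ZNF570* (2.89 ± 0.51 and 3.49 ± 0.51, adjusted p = 5.27e-04 and 1.20e-04). *ZNF260* was at 41.8, 20.1 and 49.0 in SCNT4c, 0, 5.08 and 0 in SCNT4c-KG and 19.2, 13.8 and 104 in SCNT4c-TDG (-4.29 ± 1.03 in SCNT4c-KG, adjusted p = 0.00477). *ZNF527* was at 217, 249.9 and 330.4, 39.2, 33.0 and 75.5 and 262, 93.6 and 195 (-2.48 ± 0.53, adjusted p = 0.00217), and with its locus summed the change was -0.63 (adjusted p = 0.21, against 2.46e-04 to 0.21 over all alternatives). The gene that rose and those that fell thus lay within the same cluster, with *ZNF829* between *ZNF568* and *ZNF383* at 44.2, 34.1 and 24.9 in SCNT4c against 62.1, 109 and 96.9 in SCNT4c-KG, which was not called. *ZNF529*, a neighbour of *ZNF260*, was at 6.53, 43.1 and 49.9 in SCNT4c-KG and 154, 156 and 121 in SCNT4c-TDG (2.49 ± 0.71, adjusted p = 0.0268), and this call was also lost without SCNT4c-KG replicate 1 or any 1 of the SCNT4c-TDG libraries (adjusted p over the alternatives 0.00778 to 0.148).

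The cluster at chr3:17396757-17925593 showed another order. Of its 9 numbered genes, 6 were members, and in SCNT4c-KG 3 of them rose (*ZNF629*, *ZNF668* and *ZNF771*), 0 fell and all 6 had a log2 fold change above 0, with a median of 1.86, beside the same shares of all features. In SCNT4c-TDG 0 were called, with a median of 0.89, and in the direct comparison 1, *ZNF629*, was lower, with a median of -1.60. *ZNF668*, a factor of the DNA damage response, was at 323, 34.1 and 73.1 in SCNT4c against 509.7, 514 and 286 in SCNT4c-KG (2.16 ± 0.67, adjusted p = 0.02), so the groups overlapped through SCNT4c library a. *ZNF771* was at 26.8, 68.2 and 20.8 and 322, 185 and 185 (2.69 ± 0.87, adjusted p = 0.024). The calls of *ZNF668* and *ZNF771* were each lost when any 1 of 4 libraries was left out, among them SCNT4c library c and SCNT4c-KG replicates 1 and 2 (adjusted p over the alternatives 0.00137 to 0.107 and 5.58e-04 to 0.141). These clusters were picked after their values were seen, and whether position bears on the changes was not tested. Members inside a cluster were called higher in 17.8% and lower in 22.2% in SCNT4c-KG, and members outside in 14.6% and 23.6%, beside 17.6% and 19.6% of all features. In SCNT4c-TDG the shares were 15.6% and 6.67% inside and 30.3% and 10.1% outside, beside 15.7% and 17.6% of all features.

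**Figure D4:**
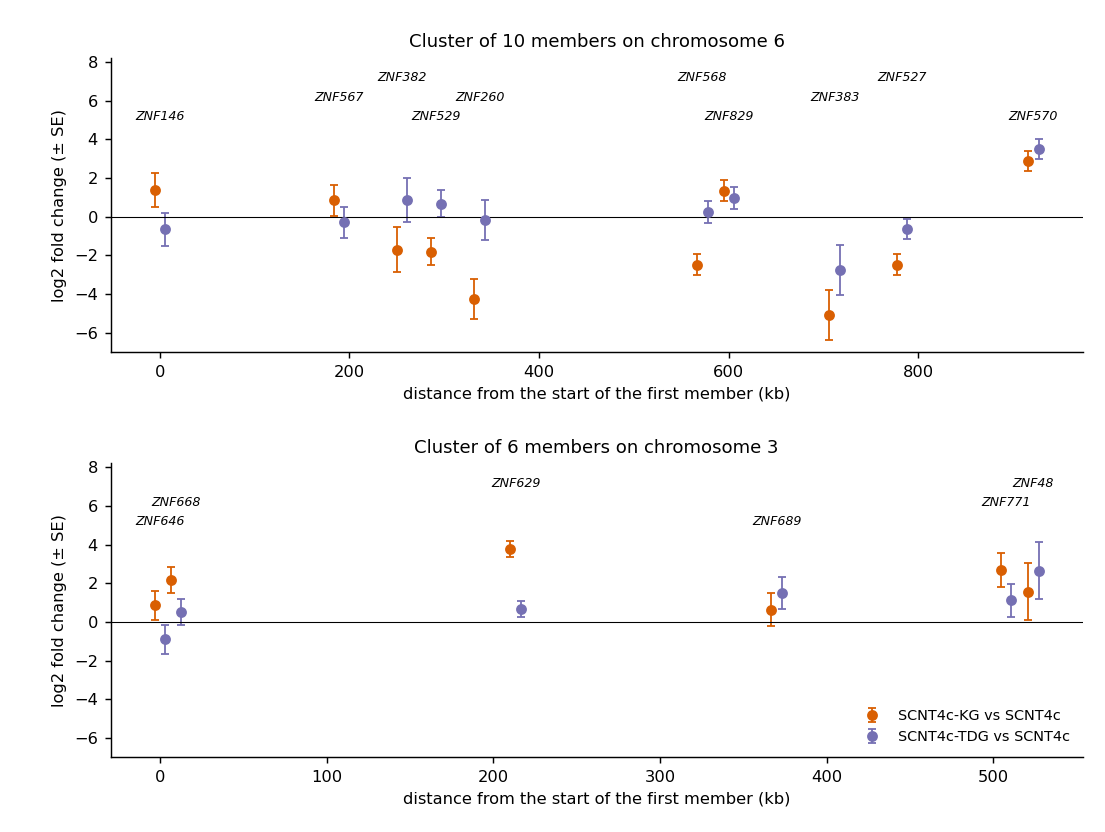
Log2 fold change against SCNT4c with its standard error for the members of 2 clusters, by distance in kb from the start of the first member. On chromosome 6, ZNF260, ZNF568, ZNF383 and ZNF527 lie below 0 in SCNT4c-KG while ZNF570 lies above it in both treatments, and on chromosome 3 all 6 members lie above 0 in SCNT4c-KG.

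The 200 bases before the annotated start of 5 members of these clusters are printed 5′ to 3′ on the strand of the gene, from the RefSeq assembly Sscrofa11.1, to set the starts of 3 genes that fell in SCNT4c-KG beside those of 2 that rose. Capitals mark matches to the motifs searched on either strand, CCGGAAG (ETS type), CCAAT (NF-Y type), TATAAA (TBP type), GCGCATGCG (NRF1 type), AAGATGGCG (YY1 type) and CACGTG (E-box). The first 3 fell and lie at chr6:45857874-45858073 on the plus strand, chr6:46121507-46121706 on the minus strand and chr6:46303834-46304033 on the plus strand. The last 2 rose and lie on the plus strand at chr3:17609900-17610099 and chr3:17406063-17406262.
ZNF260: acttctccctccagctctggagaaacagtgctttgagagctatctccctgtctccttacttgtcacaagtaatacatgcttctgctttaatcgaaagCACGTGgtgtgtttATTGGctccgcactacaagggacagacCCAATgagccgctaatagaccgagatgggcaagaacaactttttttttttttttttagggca
ZNF568: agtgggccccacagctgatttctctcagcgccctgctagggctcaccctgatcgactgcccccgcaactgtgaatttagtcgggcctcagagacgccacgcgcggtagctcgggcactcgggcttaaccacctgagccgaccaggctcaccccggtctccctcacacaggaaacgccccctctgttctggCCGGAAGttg
ZNF527: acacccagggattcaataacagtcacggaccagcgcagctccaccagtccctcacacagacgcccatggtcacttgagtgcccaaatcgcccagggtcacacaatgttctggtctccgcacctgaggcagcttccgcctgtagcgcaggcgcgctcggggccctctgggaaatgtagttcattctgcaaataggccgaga
ZNF629: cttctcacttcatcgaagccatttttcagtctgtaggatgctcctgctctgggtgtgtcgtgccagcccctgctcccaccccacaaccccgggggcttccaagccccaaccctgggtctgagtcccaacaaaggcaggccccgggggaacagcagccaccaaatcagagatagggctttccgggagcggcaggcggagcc
ZNF668: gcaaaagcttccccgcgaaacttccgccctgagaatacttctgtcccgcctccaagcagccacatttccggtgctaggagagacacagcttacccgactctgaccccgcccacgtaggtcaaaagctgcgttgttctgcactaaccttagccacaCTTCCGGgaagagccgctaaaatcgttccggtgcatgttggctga
The window of *ZNF260* held 5 CpG and 44.5% G and C, with 2 CCAAT matches and 1 E-box, and that of *ZNF568* held 14 CpG and 64% G and C with 1 ETS type match. *ZNF527* and *ZNF629* had no match, with 11 and 7 CpG, and *ZNF668* had 1 ETS type match and 13 CpG. The letters thus did not split the genes that fell from those that rose, and an annotated start need not be the start used in embryos. Over the 250 bases before the start, read for 132 members and 19595 coding genes, CCGGAAG was held by 11.4% of the members, 9.65% of the 10503 coding genes with a mean of at least 10 and 7.75% of all. In the same order, the shares were 28.8%, 33.5% and 31.9% for CCAAT, 8.33%, 8.14% and 9.78% for TATAAA, 0.758%, 1.79% and 1.43% for GCGCATGCG, 2.27%, 1% and 0.776% for AAGATGGCG and 2.27%, 7.18% and 6.39% for CACGTG. The median CpG count was 15 for the members, as for those 10503 genes. It was 17.5 for 20 members higher and 12 for 31 members lower in SCNT4c-KG, and 18 for 33 members higher and 12 for 11 members lower in SCNT4c-TDG, as descriptions without a test.

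The choice of members did not use their exon structure. The largest coding exon held a median of 73.4% of the coding length over 132 members with a coding annotation and 25.8% over 10517 coding genes with a mean of at least 10, and it held more than 50% in 74.2% of the members and 21.7% of those genes. Protein sequences were not used here, so the number of fingers and the presence of a KRAB domain were not read. Among the 98 members with more than 50% of the coding length in 1 exon, 13.3% were higher and 28.6% lower in SCNT4c-KG, and 28.6% were higher and 3.06% lower in SCNT4c-TDG than in SCNT4c-KG, beside 17.6% and 19.6% and 7.07% and 9.13% of all features. Among the other 34 members, the shares were 20.6% and 8.82% in SCNT4c-KG, and 5.88% and 8.82% in the direct comparison. In SCNT4c-TDG against SCNT4c, 24.5% and 26.5% of the 2 classes were higher and 10.2% and 2.94% lower, beside 15.7% and 17.6% of all features. The class with 1 dominant exon held 28 of the 31 members that fell in SCNT4c-KG, 28 of the 30 that were higher in SCNT4c-TDG than in SCNT4c-KG and 98 of all 134, and the difference between the classes was not tested.

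The partners through which KRAB proteins act were taken as a separate list of 18 symbols, in which TASOR and *FAM208A* name the same gene. Of these symbols, 17 were in the expression table and 14 were tested. In SCNT4c-KG 4 rose and 1 fell, and in SCNT4c-TDG 4 rose and 4 fell, beside 17.6% higher and 19.6% lower and 15.7% higher and 17.6% lower of all features. *CBX3* and *CBX5*, which bind H3K9me3, rose in SCNT4c-KG (1.21 ± 0.24 and 1.42 ± 0.25, adjusted p = 0.00122 and 4.83e-04). *ATF7IP*, the partner of *SETDB1*, rose in SCNT4c-KG (4.48 ± 1.09, adjusted p = 0.00515) and in SCNT4c-TDG (5.70 ± 1.09, adjusted p = 0.00107), and so did *SMARCAD1* (1.79 ± 0.34 and 3.21 ± 0.34, adjusted p = 8.94e-04 and 6.81e-06). *PPHLN1*, a HUSH subunit, fell in both (-1.89 ± 0.37 and -1.07 ± 0.37, adjusted p = 0.00111 and 0.0365). *CBX1* (-1.49 ± 0.29, adjusted p = 0.00118), *CHD4* (-1.08 ± 0.34, adjusted p = 0.0233) and *HDAC1* (-1.38 ± 0.33, adjusted p = 0.00479) fell in SCNT4c-TDG, while *TRIM24* and *FAM208A*, the HUSH subunit TASOR, rose there (1.72 ± 0.35 and 3.14 ± 0.56, adjusted p = 0.00152 and 6.09e-04). *SETDB1* was listed at 0 in all 15 libraries and *TRIM28* at 0 in all 12 embryo libraries. *HDAC2*, which nearly all cells use, was also at or near 0 in every library, so an entry at 0 in this table says only that the gene is listed at 0.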

How the data were processed

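The deposited values are read counts per feature that the authors divided by a factor for each library, which makes them a normalized signal. According to the study's methods, SMARTer chemistry amplified the cDNA, and reads were trimmed with Trimmomatic 0.39, aligned to Sscrofa11.1 with STAR 2.5.3a and kept where they mapped uniquely. Transcripts assembled with StringTie 2.1.2 were added to the annotation and reads were counted with HTSeq. Whether the counting used strand is not given in the sources used here, and reads of copies alike in sequence are dropped where they do not map uniquely. Divided by the value of 1 read, 100% of the values came out whole within 0.02, which gave back the reads. Of 43535 entries, 241 repeats of a gene ID were dropped, leaving 43294.

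Groups came from the titles of the samples. The labels number the SCNT4c libraries in conflicting ways, so these are called a, b and c. Values were tested as log2(value + 1) with limma 3.58.1 in R 4.3.3, with an intensity trend, in a fit of the 12 embryo libraries and 18942 features with a mean of at least 10, and p-values were adjusted by Benjamini and Hochberg over all features. Alternatives were a pseudocount of 0.1 or 10, no minimum or a minimum mean of 50, scaling by quantiles or to equal totals, edgeR 4.0.16 and DESeq2 1.42.0 on the recovered reads, a fit of 2 groups alone, no fold change limit, a replicate block, each library left out, and each member summed with the assembled transcripts of its locus, which 96 members have. Features other than members were not summed, so that alternative has no like background. The test was checked on simulated data in which far fewer features changed than were called between these groups. That check therefore does not cover changes on the scale seen here. Named genes were, in each comparison, the 6 members that rose and the 6 that fell most among those called whose libraries did not overlap and whose higher mean was at least 50, the most abundant members per kb and the members of the lists by role. The members, lists and rules were chosen with earlier results of these data known. Genes named for cluster position, *ZNF248* and the 2 falls in SCNT8c were chosen after their values were seen. Coordinates and promoters come from the RefSeq annotation of Sscrofa11.1, with Python 3.11.15.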

Additional observations from a re-analysis of the deposited data

Results flagged for a closer look

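The effects of the 2 treatments against the same SCNT4c libraries were called in opposite directions for 2 members, and the difference itself was tested in the direct comparison. *ZNF300* had a log2 difference of 4.17 between SCNT4c-TDG and SCNT4c-KG (SE 0.71, limma adjusted p = 0.00119), with all SCNT4c-TDG libraries above and all SCNT4c-KG libraries below those of SCNT4c. The call of *ZNF300* in SCNT4c-TDG against SCNT4c was made in 8 of 16 alternatives and lost with each of the 6 libraries left out in turn, and that in SCNT4c-KG was lost in a fit of the 2 groups alone and without SCNT4c library b or SCNT4c-KG replicate 2. *ZNF248* had a log2 difference of 2.83 (SE 0.44, limma adjusted p = 6.24e-04). Its values were 119.9, 169 and 189 in SCNT4c, 49.0, 49.5 and 59.8 in SCNT4c-KG and 332, 367 and 447 in SCNT4c-TDG, again with no overlap between groups. Its single changes were -1.56 ± 0.44 and 1.27 ± 0.44 (adjusted p = 0.0118 and 0.0355), and the latter was called in 9 of 16 alternatives and lost with each of its 6 libraries left out. Both differences were called in all 17 alternatives. In PFF, *ZNF248* was at 645, 659.7 and 769.9, above the SCNT4c-TDG libraries, as was *ZNF300* at 402, 357 and 350.4.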

How the results depend on the processing

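The total of called members kept within 1.5 times its value in SCNT4c-KG against SCNT4c under all alternatives (42 to 55, and 39 to 48 with 1 library left out, although the lower members went from 31 to 19 and 18 without SCNT4c library a or b) and in SCNT4c-TDG against SCNT4c (38 to 64) except without SCNT4c-TDG replicate 1, where it was 30 (30 to 37 with 1 library left out). For SCNT4c-TDG against SCNT4c-KG it was 31 to 50, and 21 to 32 with 1 library left out. For SCNT8c against SCNT4c it was 4, but 2 with a pseudocount of 0.1, with no minimum or with the locus summed, 7 with a minimum mean of 50, 23 with DESeq2, 0 in a fit of the 2 groups alone (20 at an unadjusted p under 0.05) and 0 to 30 with 1 library left out. Over all features, the share of higher calls in SCNT8c was 45.4%, but 79.5% with edgeR, 71.8% with DESeq2 and 57% with quantile normalization, where 6 members were called, 5 higher and 1 lower. On the recovered reads, edgeR and DESeq2 called 42 and 54 members in SCNT4c-KG (30.8% and 38.2% of all features), 43 and 53 in SCNT4c-TDG (29.2% and 36.9%) and 31 and 41 between the treatments (13.5% and 20.9%). A minimum mean of 5 or 20 in place of 10 gave 155 or 117 members.

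Of 139 calls of single members, 59 were kept under all alternatives, and 9 turned direction, all when assembled transcripts of the locus were added. These were *ZNF692* (0.42), *ZNF507* (-0.26) and *ZNF389* (-0.65) in SCNT4c-KG, *ZNF583* (-0.61), *ZNF576* (-0.73), *ZNF239* (-0.27) and *ZNF389* (-0.47) in SCNT4c-TDG, *ZNF146* (0.53) in SCNT8c and *ZNF827* (0.31) between the treatments. The sum adds reads of other genes where a locus holds several, as it does for 72 members. With the replicate number as a block, 47 members were called between SCNT4c-TDG and SCNT4c-KG, beside 50 in the same fit without it. Libraries of the same number correlated in their deviations at r = -0.061 to 0.195 across groups, so the numbers were not taken as pairs, and no block could be fitted for comparisons with SCNT4c, whose columns carry no usable numbers. Ratios to PFF held for 24 to 28 members over 2 times and 67 to 74 under 1/2 with 1 library left out. Low members are limited by depth, since 1 read was worth up to 1.63 units.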

Other observations

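Zinc finger genes of other families, with the same threshold, are given as values. Of all features, 17.6% were higher and 19.6% lower in SCNT4c-KG, 15.7% and 17.6% in SCNT4c-TDG, and 7.07% and 9.13% between the treatments, with a median difference of -0.02. Of 20 ZBTB genes tested, 5 were higher and 2 lower in SCNT4c-KG than in SCNT4c, 7 higher and 2 lower in SCNT4c-TDG than in SCNT4c, and 5 higher and 1 lower in SCNT4c-TDG than in SCNT4c-KG, with a median log2 difference of 0.69 between the treatments. Of 4 numbered ZFP genes, 2 were lower in SCNT4c-KG and 1 was higher in SCNT4c-TDG than in SCNT4c-KG, with a median difference of 1.11. Of 5 ZSCAN genes, 1 was higher in each treatment and 0 differed between the treatments (median difference 0.68). Of 3 ZKSCAN genes, 1 was lower in SCNT4c-KG and 1 was higher in SCNT4c-TDG than in SCNT4c-KG (median difference 0.9998). Their called genes were not compared one by one with those of the members.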
